A study of Mus musculus with 24 samples.

Results

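Arrays of mouse hindlimb muscle that were rich in slow fibre transcripts were set against arrays that were poor in them. The 10 arrays, of 24 in the series, were selected on measured values. Each gene symbol was read from its probe of highest mean over all arrays. The 13 arrays whose mean of Cd79b, Cd3e and Fcmr (lymphocyte genes) lay under 7.5 on the log2 scale were ranked by their mean of Myh7, Tnni1, Tnnt1, Myl2 and Myl3 (slow fibre genes). The 5 highest are called slow-rich and the 5 lowest slow-poor. Another 3 arrays lay between the sets, and 11 were at or above the lymphocyte level and were not ranked.

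The study measured the gastrocnemius-soleus complex, the calf muscles, of female mice aged 5 weeks on Illumina bead arrays, with 6 arrays in each of 4 groups. Mice were transgenic for α7BX2 integrin (TG, a laminin receptor chain of the fibre membrane) or wild type (WT). No label names the promoter that drives the transgene. Mice had either run downhill once (run: a slope of 20 degrees, 17 m/min, 40 min, muscle taken 3 h later) or had not been exercised (rest). Arrays are named below by genotype, state and replicate number. The slow-rich set held WT run 3, WT rest 1, WT run 2, TG rest 5 and TG rest 3. The slow-poor set held TG run 5, TG rest 11, WT run 5, TG rest 8 and WT rest 11. Values in each set are given in that order.

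Slow fibres (type I) contract slowly, resist fatigue and use their own forms of myosin, troponin, tropomyosin and calcium pump. In the mouse calf they lie mainly in the soleus, a small muscle beside the large and mostly fast gastrocnemius. In RNA from a whole muscle complex, fewer cells of a type and less RNA per cell cannot be told apart.

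The slow marker mean was 13.15, 13.10, 13.08, 12.93 and 12.92 in the slow-rich arrays and 12.28, 12.27, 12.27, 11.92 and 11.89 in the slow-poor arrays. The array just below the slow-rich set was TG run 4 at 12.90, and the array just above the slow-poor set was WT rest 3 at 12.31. On the lymphocyte level, TG rest 3 at 6.16 was the highest array kept and TG run 11 at 8.55 the lowest array left out. Median intensity per array was 105.2 to 126.9 in the slow-rich set and 123.5 to 136.6 in the slow-poor set. The share of probes detected was 40.4% to 42.5% in the slow-rich set and 41.7% to 43.6% in the slow-poor set. The number of arrays limits the precision of every value. Each array's own label says female, while the treatment protocol speaks of both sexes. It counts 6 females per group, as many as arrays, so arrays were taken as separate mice and p-values measure the spread between them.

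**Figure D1:**
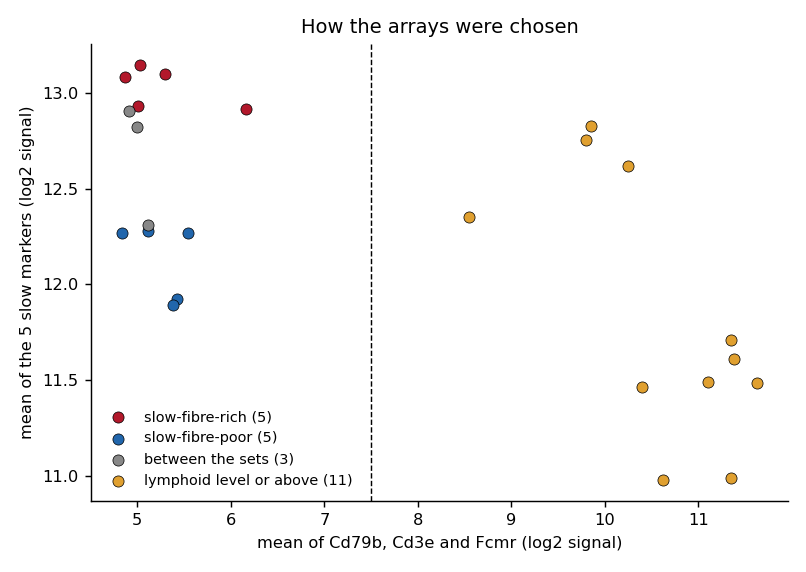
Each of the 24 arrays is a point, with its mean of 3 lymphocyte genes across and its mean of 5 slow marker genes up, both in log2 signal. The 5 slow-rich arrays lie at 12.92 or above and the 5 slow-poor arrays at 12.28 or below. The dashed line is the lymphocyte level of 7.5, and the 11 arrays to its right were not ranked.

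Neither exercise nor genotype showed a detectable difference in the measure that chose the arrays. Over all 24 arrays the slow marker mean was 12.31 ± 0.62 in run and 12.20 ± 0.75 in rest (SD, n = 12 each). The difference was 0.12 (permutation test, two-sided, 100000 resamples, p = 0.678). With the replicate number as a block it turned round, at -0.22 over 8 pairs (exact permutation p = 0.297). The slow marker mean was 12.25 ± 0.65 in TG and 12.26 ± 0.73 in WT (SD, n = 12 each), a difference of -0.01 (permutation test, two-sided, p = 0.954). In the 13 ranked arrays alone the run minus rest difference was 0.27 and the TG minus WT difference -0.12. By group the slow marker mean was 12.19 ± 0.59 in TG run, 12.31 ± 0.77 in TG rest, 12.44 ± 0.68 in WT run and 12.08 ± 0.79 in WT rest (SD, n = 6 each). Run arrays made up 2 of the 5 slow-rich and 2 of the 5 slow-poor arrays (Fisher's exact test, two-sided, p = 1). TG arrays made up 2 of the 5 slow-rich and 3 of the 5 slow-poor arrays (Fisher's exact test, two-sided, p = 1). The effect of the run on the slow marker mean, TG minus WT, was -0.48 (permutation test, two-sided, 10000 resamples, p = 0.415). The slow-rich set held no TG run array.

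The 5 marker genes differed by choice, and their values are a description. Myh7, the slow myosin heavy chain, read 8.97, 9.30, 8.53, 8.56 and 9.37 in slow-rich arrays and 8.18, 8.01, 7.95, 7.37 and 7.55 in slow-poor arrays. Tnni1, slow troponin I, read 11.27, 10.98, 11.53, 10.94 and 10.45 in slow-rich arrays and 10.09, 10.14, 10.01, 9.05 and 9.51 in slow-poor arrays. Tnnt1, slow troponin T, read 15.00, 14.75, 14.87, 14.68 and 14.52 in slow-rich arrays and 13.79, 13.83, 13.85, 13.74 and 13.58 in slow-poor arrays. The sets did not overlap in any of the 5 markers. The differences in means were 1.14 for Myh7, 1.27 for Tnni1, 1.01 for Tnnt1, 0.61 for Myl2 and 0.52 for Myl3. Myl2 and Myl3, light chains of slow and cardiac myosin, stood near the top of the scale, which ended at 15.40, the value of Myl2 in WT rest 1. Near that end a probe has little room to read higher.

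The promoters of 9 slow fibre genes (the 5 markers, Tnnc1, Tpm3, Myl6b and Casq2) were read from RefSeq tables of GRCm38.p6, from 250 bases before to 50 bases after the first listed start. An MCAT element (CATTCC on either strand), the site bound by TEAD factors, was found in 3 of the 9. Of all 32851 promoters of that length, 14.7% held one. The 3 are printed 5′ to 3′ on the gene's strand, with the element in capitals, because the element sets them apart from the other 6.
Myh7, chr14:54994577-54994876, minus strand: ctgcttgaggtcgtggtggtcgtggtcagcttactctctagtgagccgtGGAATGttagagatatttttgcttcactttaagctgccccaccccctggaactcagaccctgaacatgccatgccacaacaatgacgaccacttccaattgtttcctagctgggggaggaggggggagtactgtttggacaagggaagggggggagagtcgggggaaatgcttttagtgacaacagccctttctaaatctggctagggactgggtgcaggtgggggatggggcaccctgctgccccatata
Myl3, chr9:110763428-110763727, plus strand: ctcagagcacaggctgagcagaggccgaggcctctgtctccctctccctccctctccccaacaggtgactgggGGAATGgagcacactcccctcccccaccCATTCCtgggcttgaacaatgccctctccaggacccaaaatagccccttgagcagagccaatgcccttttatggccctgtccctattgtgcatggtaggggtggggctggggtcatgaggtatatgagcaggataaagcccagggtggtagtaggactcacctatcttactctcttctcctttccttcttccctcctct
Tnnc1, chr14:31208062-31208361, plus strand: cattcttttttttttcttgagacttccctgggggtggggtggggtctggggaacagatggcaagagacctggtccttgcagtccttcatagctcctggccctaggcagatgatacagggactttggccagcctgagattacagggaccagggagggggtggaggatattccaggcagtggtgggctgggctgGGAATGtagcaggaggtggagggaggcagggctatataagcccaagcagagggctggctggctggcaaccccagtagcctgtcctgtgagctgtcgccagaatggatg
A MEF2 consensus site was found in 1 of the 9 promoters, that of Casq2, and in 3.19% of all promoters. All 9 held an E box (CANNTG, the site of MyoD family factors, either strand), as did 72.3% of all promoters. These are matches of letters and not measured sites.

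A pair of measures was kept for every other gene. The first is the difference between the sets, slow-rich minus slow-poor, which carries no test because the arrays were chosen on these data. Of 14979 features detected on at least 6 of the 24 arrays, 1832 had all slow-rich arrays above all slow-poor arrays (12.2%), and 1226 had them all below (8.18%). With a difference of at least 1 besides, 127 were higher (0.848%) and 163 were lower (1.09%). The second measure is the slope of each gene on the slow marker mean in the 11 unranked arrays, which share no array with the sets. It was fitted with limma with the lymphocyte mean as covariate, in log2 units per log2 unit of slow marker mean. There 1383 features (9.24%) had a positive slope and 1214 (8.11%) a negative slope at an adjusted p under 0.05. Counts in the gene lists below are to be read against these shares of all features.

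The slow marker mean of the 11 unranked arrays fell into separate clusters, so the slopes rest mostly on a few arrays. TG rest 4, WT rest 6, TG run 3 and TG run 11 lay between 12.35 and 12.83, and the other 7 lay between 10.98 and 11.71. In those 7 arrays alone, limma called 0 features, although 885 had an unadjusted p under 0.05. Without TG run 3 the positive and negative calls were 33 and 53, without TG rest 4 they were 129 and 203, without TG run 11 they were 218 and 241, and without WT rest 6 they were 450 and 463. Slow and lymphocyte means were related across the 11 arrays (Pearson's r = -0.66, a description). Slopes in the 7 arrays are therefore given beside the main slopes for part of the genes named below. A main slope printed alone comes without that comparison.

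The sets and the slopes pointed the same way for most features that stood apart. Leaving out the markers, 124 features were higher by at least 1 without overlap. Of these, 123 had a positive slope in the unranked arrays and 94 were called, with a median slope of 0.76. Of the 163 lower features, 162 had a negative slope and 130 were called, with a median slope of -0.88. None was called in the opposite direction. Over all features the median slope was 0.03. In the 7 arrays alone, 107 of the higher and 116 of the lower features kept that sign. The share of all features with each sign in the 7 arrays is not given here, so these counts have no baseline. Calls held in every fit that left out 1 array for 13 of the higher and 8 of the lower features. Of the genes with slope calls named below, Tnnc1, Tpm3, Myl6b, Myh6, Atp2a2, Myom3, Adipoq and Trf kept them in every such fit, and the others lost them in at least 1.

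**Figure D2:**
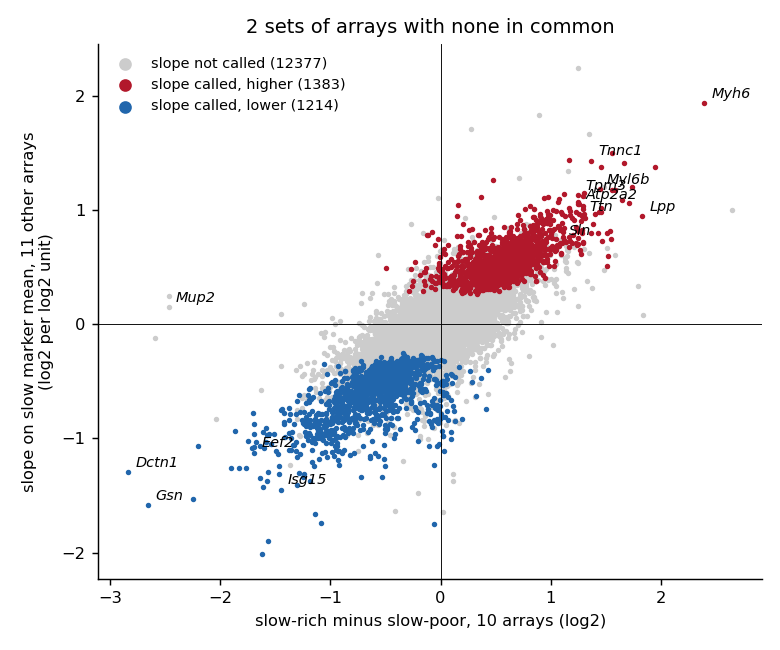
Each point is a detected feature, with its difference between 5 slow-rich and 5 slow-poor arrays across (log2) and its slope on the slow marker mean in the 11 other arrays up (log2 per log2 unit). The 5 markers are left out. Colours mark the 1383 positive and 1214 negative slopes with a limma adjusted p under 0.05. Tnnc1, Tpm3 and Myl6b lie at the upper right, Dctn1 and Gsn at the lower left, and Mup2 lies far to the left with a slope near 0.

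Slow contractile genes that played no part in the choice of arrays were higher in slow-rich arrays. Of 10 such genes measured, 6 were higher without overlap and none lower, with a median difference of 0.73, against 0.03 over all features. In the unranked arrays 8 of the 10 had a positive slope with an adjusted p under 0.05 and none a negative one (limma), with a median slope of 0.77.

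Tnnc1, the troponin C of slow and cardiac muscle, read 15.00, 14.65, 14.96, 14.76 and 14.38 in slow-rich arrays and 13.47, 13.70, 13.65, 12.93 and 13.13 in slow-poor arrays. The sets lay apart by 1.37, and the slope in the unranked arrays was 1.43 ± 0.11 (SE, limma adjusted p = 0.000192). The highest adjusted p with any 1 array left out was 0.00503, and the slope in the 7 arrays was 1.17 ± 0.24. It was thus positive within the lower cluster as well.

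Tpm3, slow tropomyosin, read 14.65, 14.59, 14.58, 14.49 and 14.24 in slow-rich arrays and 13.36, 13.62, 13.37, 12.85 and 13.09 in slow-poor arrays. Its difference was 1.25 and its slope 1.13 ± 0.10 (SE, limma adjusted p = 0.000263), with 1.00 ± 0.24 in the 7 arrays. Of the Tpm3 probes detected, 5 lay between 1.25 and 1.50 and 1 at -1.05. Tpm3 also gives transcripts outside the sarcomere, and the files do not say which transcript a probe reads.

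Myl6b, a light chain of slow skeletal myosin, read 8.16, 8.43, 9.00, 8.16 and 7.52 in slow-rich arrays and 7.09, 6.92, 7.29, 6.31 and 6.42 in slow-poor arrays. The sets did not overlap. The difference was 1.45 and the slope 1.18 ± 0.11 (SE, limma adjusted p = 0.000573), with 1.01 ± 0.28 in the 7 arrays. Csrp3 (muscle LIM protein) and Ankrd2, both proteins of the sarcomere that are abundant in slow muscle, overlapped between the sets, with differences of 1.09 and 0.80. Csrp3 had a slope of 0.98 ± 0.30 (SE, limma adjusted p = 0.0404) and Ankrd2 one of 0.87 ± 0.29 (limma adjusted p = 0.0568). In the 7 arrays their slopes were 1.92 ± 0.56 for Csrp3 and 1.70 ± 0.56 for Ankrd2.

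Among all named genes that stood apart, Myh6 had the greatest difference upward. Myh6 encodes the alpha myosin heavy chain of the heart and is the neighbour and close relative of Myh7 on chromosome 14. It read 11.60, 10.68, 11.41, 11.14 and 10.34 in slow-rich arrays and 8.86, 9.18, 8.81, 8.03 and 8.32 in slow-poor arrays. The sets lay apart by 2.40, and the slope was 1.93 ± 0.18 (SE, limma adjusted p = 0.000542), with 1.29 ± 0.30 in the 7 arrays. Whether the Myh6 probe also binds Myh7 transcripts was not tested.

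**Figure D3:**
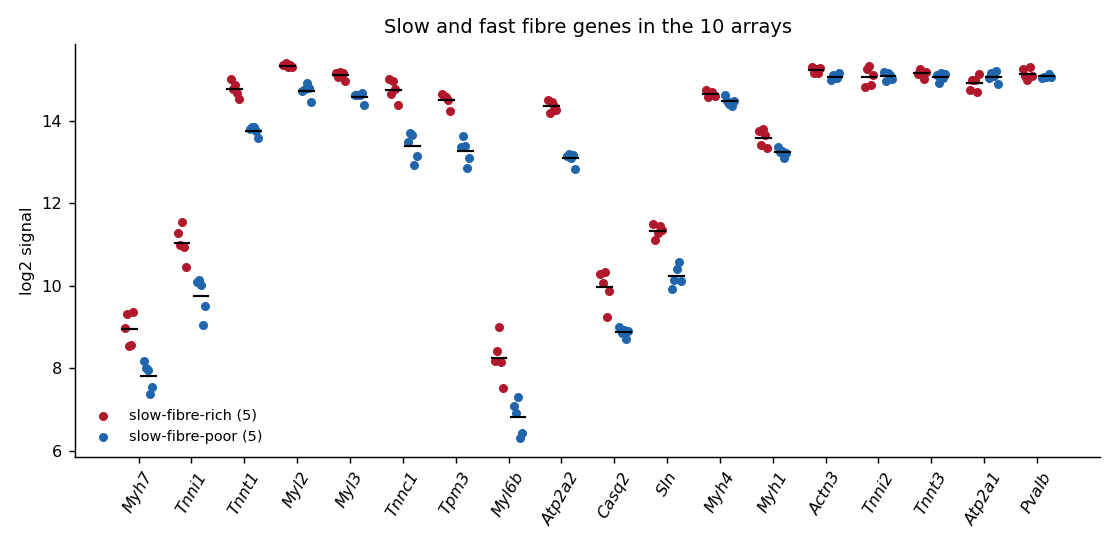
Log2 signal of slow and fast fibre genes in the 5 slow-rich arrays (left points of each gene) and the 5 slow-poor arrays (right points), with bars at the means. The first 5 genes are the markers that chose the arrays. Tnnc1, Tpm3, Myl6b, Atp2a2, Casq2 and Sln do not overlap between the sets, while the fast genes on the right, from Myh4 to Pvalb, lie within 0.35 of each other in mean.

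Of 4 calcium handling genes of slow and cardiac muscle, 3 were higher in slow-rich arrays without overlap and 1, Pln, was lower. In the unranked arrays 2 had positive and 0 negative slope calls. Atp2a2, the calcium pump SERCA2 that refills the stores of slow fibres, read 14.49, 14.17, 14.46, 14.35 and 14.25 in slow-rich arrays and 13.13, 13.20, 13.10, 13.17 and 12.82 in slow-poor arrays. Its difference was 1.26, and its slope was 1.05 ± 0.14 (SE, limma adjusted p = 0.0063), with 0.54 ± 0.20 in the 7 arrays. Of its other detected probes, 1 differed by 1.12 and a dimmer one by -0.22. The sets were each narrow, with an SD of 0.14 in slow-rich and 0.15 in slow-poor arrays.

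Casq2, the calsequestrin that stores calcium in cardiac and slow muscle, read 10.29, 10.07, 10.34, 9.25 and 9.86 in slow-rich arrays and 9.01, 8.84, 8.94, 8.71 and 8.89 in slow-poor arrays. Its slope was 0.71 ± 0.17 (SE, limma adjusted p = 0.0184). Sln (sarcolipin, a small inhibitor of the pump) read 11.49, 11.10, 11.28, 11.44 and 11.36 in slow-rich arrays and 9.92, 10.13, 10.41, 10.57 and 10.12 in slow-poor arrays. Neither gene overlapped between the sets, but the slope of Sln, 0.73 ± 0.27, missed the threshold (SE, limma adjusted p = 0.0764). Pln (phospholamban, another inhibitor of the pump) was dim, at 5.21 ± 0.14 in slow-rich and 5.65 ± 0.19 in slow-poor arrays (SD, n = 5 each), and was detected on 2 of 5 slow-rich and 5 of 5 slow-poor arrays.

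Fast fibre genes did not mirror the slow ones. Of 11 fast contractile genes, 1 was higher without overlap and 0 were lower, with a median difference of 0.08. Myh4, the fastest (IIb) myosin heavy chain, read 14.74, 14.57, 14.66, 14.69 and 14.60 in slow-rich arrays and 14.62, 14.47, 14.40, 14.36 and 14.48 in slow-poor arrays. Myh1, the IIx myosin heavy chain, read 13.74, 13.41, 13.80, 13.66 and 13.33 in slow-rich arrays and 13.35, 13.25, 13.26, 13.10 and 13.22 in slow-poor arrays. Both genes overlapped, with differences of 0.18 for Myh4 and 0.35 for Myh1. The gene that did not overlap was Actn3, the alpha-actinin of fast fibres, at 15.23 ± 0.06 in slow-rich and 15.06 ± 0.07 in slow-poor arrays (SD, n = 5 each). Its other detected probes overlapped and disagreed, with differences of 0.19 and -0.81, so Actn3 has no settled direction. Tnni2 and Tnnt3, fast troponins, differed by -0.01 and 0.08, and Pvalb, the calcium buffer parvalbumin, by 0.07. Several of these probes read about 15, near the top of the scale.

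Calcium handling genes grouped in a list with those of fast fibres went both ways, with 3 of 5 above 0 and 2 below. Ryr1, the calcium release channel of skeletal muscle, was higher without overlap, at 14.40 ± 0.21 in slow-rich and 13.73 ± 0.13 in slow-poor arrays (SD, n = 5 each), with a slope of 0.61 ± 0.15 (SE, limma adjusted p = 0.02). Casq1, the fast calsequestrin, averaged 11.58 ± 0.69 in slow-rich and 12.42 ± 0.13 in slow-poor arrays (SD, n = 5 each) and overlapped. Its slope was -0.76 ± 0.25 (SE, limma adjusted p = 0.0493), but 0.09 ± 0.32 in the 7 arrays. Atp2a1, the fast calcium pump SERCA1, differed by -0.16 and had a slope of -0.02 ± 0.09 (SE, limma adjusted p = 0.909).

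Genes of the very large sarcomere proteins were higher in slow-rich arrays, in a list added after the values were seen. Of 6 genes, 4 were higher without overlap and none lower, with a median difference of 0.79. Ttn (titin, the molecular spring of the sarcomere) read 15.19, 15.21, 15.27, 15.27 and 15.14 in slow-rich arrays and 13.60 to 14.40 in slow-poor arrays, with a median of 13.93, so the sets did not overlap. All 11 detected Ttn probes were higher, by 0.22 to 2.54. Over all 194 genes described, 83 had over 1 detected probe, and in 19 of these the probes lay on both sides of 0. The Ttn slope was 0.94 ± 0.20 (SE, limma adjusted p = 0.0155), but 0.28 ± 0.25 in the 7 arrays. Myom1, an M-band protein, read 14.19, 13.60, 14.24, 14.33 and 13.51 in slow-rich arrays and 12.88, 12.88, 12.85, 12.88 and 12.86 in slow-poor arrays. Myom3, an M-band protein found in slow and IIa fibres, differed by 1.08 and had a slope of 1.10 ± 0.19 (SE, limma adjusted p = 0.0122). Myom2, its counterpart in fast fibres, differed by 0.50 and had a slope of 0.52 ± 0.12 (SE, limma adjusted p = 0.0184). The other detected Myom1 probe was higher by 1.01 without overlap. The other detected probes of Myom3 and Myom2 overlapped, with differences of -0.18 and -0.02, so these 2 differences rest on the probe of highest mean.

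Genes of oxidative metabolism had median differences close to 0. Of 33 complex I genes, 4 were higher without overlap, near the 12.2% of all features, and 7 were lower, against 8.18% of all features. Their median difference was -0.05. Of 36 genes of complexes II to V, 1 was higher and 3 lower, with a median of -0.07. In the unranked arrays each of these lists had 0 positive and 2 negative slope calls. Ndufs4, a subunit of complex I, was lower, at 13.17 ± 0.24 in slow-rich and 13.68 ± 0.04 in slow-poor arrays (SD, n = 5 each). Its other detected probes overlapped, with differences of -0.07, -0.36 and -0.05. Of 15 citric acid cycle genes, 3 were higher and 1 lower without overlap, among them Ogdh (0.50), which was higher. The 2 detected probes of Idh3g disagreed, at 0.41 (higher) and -0.71 (lower), both without overlap. Of 23 fatty acid genes, 4 were higher and 3 lower.

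Hadh, an enzyme of fatty acid oxidation, was the fatty acid gene farthest from 0, at 5.69 ± 0.64 in slow-rich and 7.28 ± 0.37 in slow-poor arrays (SD, n = 5 each). It was detected on 3 of 5 slow-rich and 5 of 5 slow-poor arrays. The other detected Hadh probe overlapped, with a difference of -0.23. Mb (myoglobin, the oxygen store of red muscle) differed by -0.02, with a slope of 0.08 ± 0.10 (SE, limma adjusted p = 0.59), at a level of about 15 in both sets. All 4 measured genes of ketone and lactate use were above 0, and 2 did not overlap. The 2 detected Oxct1 probes disagreed, at 0.37 and -0.22. Oxct1 and Bdh1, enzymes of ketone use, had slopes of 0.40 ± 0.13 and 0.88 ± 0.23, and Ldhb, the heart form of lactate dehydrogenase, one of 0.67 ± 0.21 (SE, limma adjusted p = 0.0479, 0.0273 and 0.0478).

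Of 17 genes of glycolysis and glycogen, 15 were above 0 and 4 were higher without overlap, with a median difference of 0.17. Pkm, the pyruvate kinase of muscle, averaged 14.65 ± 0.13 in slow-rich and 14.01 ± 0.08 in slow-poor arrays (SD, n = 5 each). Fbp2, the muscle fructose bisphosphatase, differed by 0.57, and its slope was 0.65 ± 0.16 (SE, limma adjusted p = 0.0222). The slopes in the 7 arrays were -0.05 ± 0.22 for Pkm and 0.14 ± 0.31 for Fbp2.

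**Figure D4:**
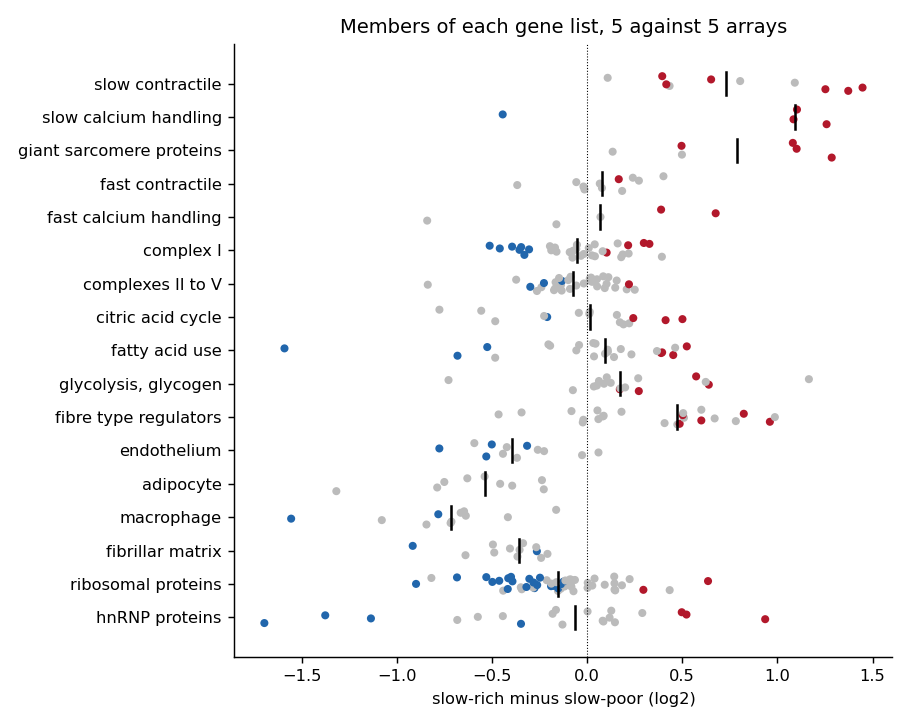
Each point is a detected gene of a list, placed by its difference between 5 slow-rich and 5 slow-poor arrays (log2), with a bar at the list's median. Red and blue mark genes that are higher or lower without overlap between the sets, and grey marks overlap. The 5 markers are not shown. The medians are 0.73 for slow contractile genes, 0.08 for fast contractile genes, -0.05 for complex I and -0.71 for macrophage genes.

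Regulators of fibre type leaned upward in slow-rich arrays. Of 23 measured, 18 were above 0, with a median difference of 0.47, against 0.03 over all features. Without overlap 5 were higher and 0 were lower, against 12.2% and 8.18% of all features. In the unranked arrays 6 had positive and 0 negative slope calls, against 9.24% and 8.11% of all features. Sox6, a repressor of slow fibre genes, averaged 7.83 ± 0.14 in slow-rich and 6.87 ± 0.33 in slow-poor arrays (SD, n = 5 each), with a slope of 0.92 ± 0.18 (SE, limma adjusted p = 0.0147). Tead1, a TEAD factor that binds MCAT elements, averaged 11.79 ± 0.25 in slow-rich and 10.97 ± 0.17 in slow-poor arrays (SD, n = 5 each), with a slope of 0.74 ± 0.15 (SE, limma adjusted p = 0.0147). In the 7 arrays their slopes were 0.65 ± 0.25 for Sox6 and 0.49 ± 0.22 for Tead1. The other detected Tead1 probe overlapped between the sets, with a difference of 0.30. Ppargc1a, the coactivator PGC-1α that drives oxidative genes, differed by 0.99 but overlapped, and its slope of 0.90 ± 0.34 missed the threshold (SE, limma adjusted p = 0.0778).

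Of 11 homeobox genes that mark position along the limb and body, 2 were higher and 1 lower without overlap, near the shares of all features. Hoxc10 averaged 10.38 ± 0.13 in slow-rich and 9.86 ± 0.20 in slow-poor arrays (SD, n = 5 each), and Hoxd9 averaged 8.74 ± 0.17 in slow-rich and 8.40 ± 0.12 in slow-poor arrays. The other detected probe of each overlapped, with differences of 0.12 for Hoxc10 and 0.06 for Hoxd9. Hoxd10 overlapped, with a difference of 0.71 and a slope of 0.71 ± 0.15 (SE, limma adjusted p = 0.0147). Of 10 neuromuscular junction genes, 2 were higher without overlap, Chrne (the adult subunit of the acetylcholine receptor) by 0.60 and Dok7 (an activator of the receptor kinase MuSK) by 0.54. With so few genes these counts do not set either list apart from the 12.2% of all features that were higher.

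Most lists of genes from outside the fibre leaned downward in slow-rich arrays, among them macrophage, adipocyte, endothelial and fibrillar matrix genes. All 5 smooth muscle and all 4 Schwann cell genes were below 0, as were 9 of 11 neutrophil and 4 of 5 erythroid genes. Lymphocyte and tendon genes were split. All 11 macrophage genes were below 0, with a median difference of -0.71. The mean of that list was 7.92 to 8.65 in slow-rich and 8.48 to 9.48 in slow-poor arrays, so the ranges overlapped. In the unranked arrays 8 of the 11 had negative slope calls, against 8.11% of all features. Lyz2, the lysozyme of macrophages and neutrophils, read 10.05, 10.23, 10.24, 9.69 and 10.33 in slow-rich arrays and 12.03, 10.57, 12.17, 11.88 and 11.65 in slow-poor arrays. The slow-poor array nearest to the slow-rich set was TG rest 11. C1qb, a complement chain made by macrophages, differed by -0.78 and had a slope of -0.81 ± 0.17 (SE, limma adjusted p = 0.0147).

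All 9 detected adipocyte genes were below 0 with overlap, and 7 had negative slope calls. The list mean was 8.45 to 9.73 in slow-rich and 9.14 to 9.67 in slow-poor arrays. That mean is over all 10 annotated genes, with Retn, which was detected on only 4 of the 24 arrays. Adipoq, the fat hormone adiponectin, averaged 11.06 ± 0.92 in slow-rich and 12.38 ± 0.09 in slow-poor arrays (SD, n = 5 each), with a slope of -0.78 ± 0.12 (SE, limma adjusted p = 0.0101). Of 12 endothelial genes, 4 were lower without overlap, against 8.18% of all features, and none had a slope call. Among the 4 were Vwf (von Willebrand factor) by -0.78 and Cdh5 (VE-cadherin) by -0.53. The other detected Cdh5 probe overlapped, at -0.07. The endothelial list mean was 9.21 to 9.46 in slow-rich and 9.53 to 9.77 in slow-poor arrays, with no overlap. All 12 fibrillar matrix genes were below 0 and 2 did not overlap, against 8.18% of all features that were lower without overlap. Of 6 tendon genes, 3 were above and 3 below 0, and Scx, a tendon transcription factor, had a positive slope of 0.41 ± 0.13 (SE, limma adjusted p = 0.0498). Of 9 lymphocyte genes, 4 were above and 5 below 0, with a median difference of -0.08 and list means of 4.85 to 5.53 in slow-rich and 4.88 to 5.37 in slow-poor arrays. Cd79b, Cd3e and Fcmr, whose mean had to lie under 7.5 in every ranked array, are in this list. Low lymphocyte signal in both sets was thus fixed by the choice of arrays. The part of these cell types in the differences of other genes was not tested.

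Broadly expressed genes were among those with the greatest differences downward, led by Dctn1 and Gsn. Next among genes with a symbol that stood apart were Mup6 (-2.60), Mup2 (-2.47) and Islr (-2.25). The other detected Islr probe overlapped between the sets, with a difference of -0.02, so the Islr difference rests on the probe of highest mean. Dctn1, a subunit of the motor adaptor dynactin, read 5.24, 7.21, 5.11, 6.40 and 8.42 in slow-rich arrays and 9.73, 8.85, 9.26, 9.29 and 9.44 in slow-poor arrays. Gsn (gelsolin, which severs actin filaments) read 7.31, 8.72, 7.27, 7.60 and 9.50 in slow-rich arrays and 11.11, 9.71, 10.83, 11.13 and 10.92 in slow-poor arrays. Eef2, the elongation factor that moves the ribosome along, read 8.11, 9.39, 8.34, 8.88 and 10.13 in slow-rich arrays and 10.84, 10.38, 10.69, 10.83 and 10.57 in slow-poor arrays. In all 3 genes TG rest 3 was the slow-rich array nearest to the slow-poor set, and WT run 2 and WT run 3 were the farthest from it.

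The slopes of these genes rested on the 4 upper arrays. They were -1.30 ± 0.34 for Dctn1, -1.58 ± 0.30 for Gsn and -1.12 ± 0.28 for Eef2 (SE, limma adjusted p = 0.026, 0.014 and 0.0233). In the 7 arrays they were 0.33 ± 0.38 for Dctn1, -0.37 ± 0.39 for Gsn and -0.13 ± 0.24 for Eef2. Among the 4 upper arrays, Eef2 read 9.31 in TG rest 4, 8.65 in WT rest 6, 8.55 in TG run 3 and 10.36 in TG run 11. Ttn read 15.21 in TG rest 4, 15.22 in WT rest 6, 15.21 in TG run 3 and 14.06 in TG run 11. TG run 11 thus lay with the slow-poor arrays in both genes, while its slow marker mean of 12.35 lay between the sets. The cause of this split was not tested.

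**Figure D5:**
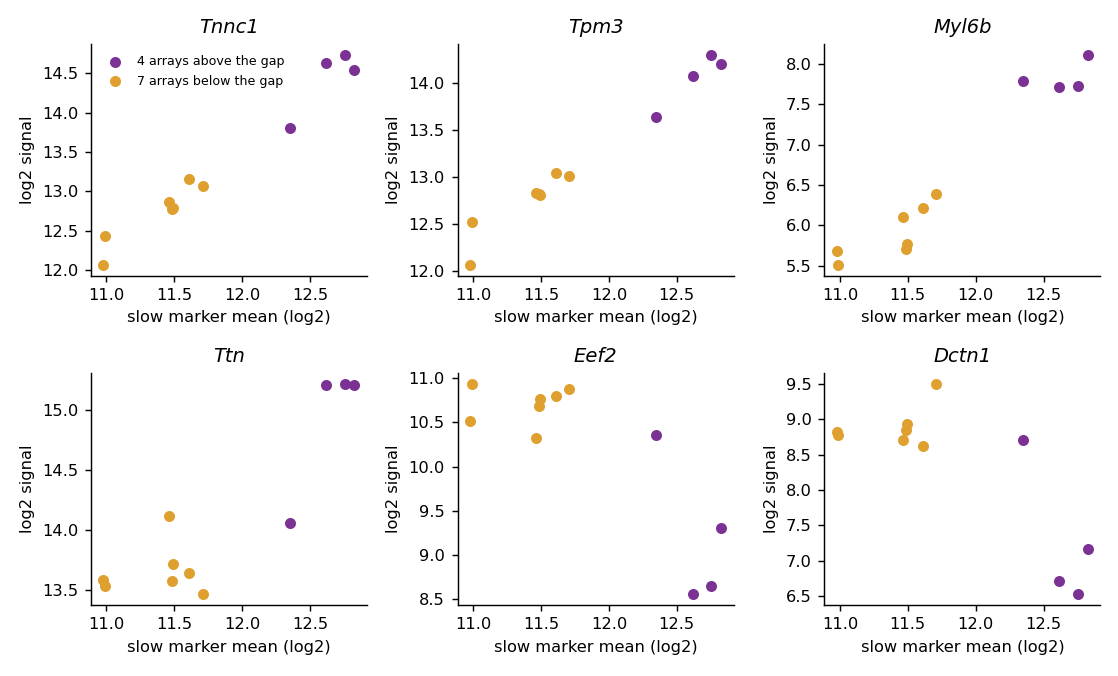
Log2 signal of 6 genes (up) against the slow marker mean (across, log2) in the 11 unranked arrays, with the 4 arrays above the gap and the 7 below it in different colours. Tnnc1, Tpm3 and Myl6b climb within the 7 arrays as well. Ttn, Eef2 and Dctn1 differ between 3 of the 4 upper arrays and the rest, and TG run 11, at 12.35, lies near the 7 arrays.

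Members of 1 gene family, the hnRNP proteins that bind and process nuclear RNA, went both ways. Of 20 genes, 3 were higher without overlap, near the 12.2% of all features, and 4 were lower, against 8.18%. The median difference was -0.06, with 10 above and 10 below 0. With so few genes these counts do not set the family apart. Hnrnpk read 7.65, 8.21, 7.27, 7.30 and 8.33 in slow-rich arrays and 9.24, 9.01, 9.04, 9.14 and 9.22 in slow-poor arrays. Hnrnpa2b1 and Hnrnpf differed by -1.70 and -1.14, while Hnrnpdl differed by 0.94 (its other detected probes by 0.11 and -0.11). Another Hnrnpa2b1 probe, detected on all 24 arrays, overlapped, with a difference of -0.18. Probes of 1 gene also disagreed: the 3 Hnrnpk probes detected on at least 6 arrays differed by -1.38, -0.08 and 0.13. Of 53 ribosomal protein genes, 20 were lower and 2 higher without overlap, against 8.18% and 12.2% of all features. In the unranked arrays 6 had negative and 2 positive slope calls, against 8.11% and 9.24% of all features. These families were chosen after their values were seen.

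Mup2, Trf, Isg15 and Ear10 were lower in slow-rich arrays, without overlap. Of 10 interferon-induced genes, 3 were lower without overlap, against 8.18% of all features, and 0 were higher. Negative slope calls were made for 3 of them, against 8.11% of all features. That list was added after the values were seen. Mup2, a major urinary protein made mainly in the liver, read 8.38, 10.86, 10.14, 8.81 and 10.50 in slow-rich arrays and 13.70, 11.07, 12.12, 11.77 and 12.38 in slow-poor arrays. Its difference was -2.47, but its slope in the unranked arrays was 0.15 ± 0.32 (SE, limma adjusted p = 0.773). Trf, transferrin, read 8.61, 10.09, 8.64, 8.74 and 9.34 in slow-rich arrays and 10.88, 10.37, 10.71, 10.75 and 10.90 in slow-poor arrays, with a slope of -1.35 ± 0.20 (SE, limma adjusted p = 0.00848). In the 7 arrays the Trf slope was -0.63 ± 0.20, so it kept its direction there. Isg15, an interferon-induced protein like ubiquitin, differed by -1.45, with a slope of -1.45 ± 0.30 (SE, limma adjusted p = 0.0148) and of -2.52 ± 0.53 in the 7 arrays. Ear10, an eosinophil ribonuclease, was not detected on any slow-rich array and was detected on all 5 slow-poor arrays. It was at least 2.55-fold lower in slow-rich arrays, with the lowest detected signal of each array, or the probe's own signal if higher, taken as their bound (means 4.85 ± 0.19 in slow-rich and 6.55 ± 0.80 in slow-poor arrays, SD, n = 5 each).

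Lpp, Zbtb16 and Per3 were among the genes with the greatest differences upward. Lpp, a LIM protein of cell adhesions, read 9.25, 8.90, 9.02, 8.79 and 8.34 in slow-rich arrays and 6.47, 7.48, 7.14, 6.98 and 7.07 in slow-poor arrays. Of its other detected probes, 1 was higher by 1.01 without overlap, and the rest overlapped, at 0.35, 0.00 and 0.57. Zbtb16, the zinc finger protein PLZF, read 9.69, 8.92, 9.35, 8.89 and 8.76 in slow-rich arrays and 8.36, 7.24, 8.34, 7.44 and 6.95 in slow-poor arrays. Neither gene overlapped by the probe of highest mean, and both had positive slopes, 0.94 ± 0.25 for Lpp and 1.37 ± 0.30 for Zbtb16 (SE, limma adjusted p = 0.027 and 0.0168). Per3, a clock gene, differed by 1.41 and had a slope of 0.96 ± 0.30 (SE, limma adjusted p = 0.0457), but of 0.05 ± 0.28 in the 7 arrays. Of 11 clock genes in a list added after the values were seen, Per3 alone did not overlap between the sets.

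Genes higher in slow-rich arrays had a greater median span in the genome than those lower in them. Span is the distance between the ends of a gene in RefSeq, and the 5 markers were left out. Its median was 32.9 kb for 1407 genes higher without overlap, 17.2 kb for 911 genes lower without overlap and 22.5 kb over all 11545 genes with a span. It was 42.3 kb for the 58 genes higher by at least 1 and 12.2 kb for the 105 lower ones. For genes with slope calls in the unranked arrays the medians were 33.5 kb for positive and 17.6 kb for negative slopes.

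The counts moved with single arrays and with the processing of the intensities. The lower count of 163 became 254 without WT rest 1, 253 without TG rest 3 and 259 without TG rest 11. With each array scaled to a common median and no background correction, 2 choices changed together, 21 genes were higher and 53 lower, against 127 and 163. Of the 194 genes kept for description, 17 changed the sign of their difference under at least 1 of 6 alternatives, 0 of them without overlap, and none had a difference of over 0.65 in size. Mb and Tnni2, both close to 0, were among them.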

How the data were processed

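Bead arrays of calf muscle RNA were assigned to genotype and exercise groups from the labels. The deposited table of raw signal intensity is linear and, per the file headers, not normalised. It holds a deposited detection p-value beside each intensity. A second deposited table holds log2 values of the authors, made with limma 3.20.8 and R 3.1.1 per the submitters' processing notes. Those log2 values were used here and differed by at most 0.0269 from neqc (limma 3.58.1, R 4.3.3) run on the intensities. Quantile normalisation of this kind gives every array the same distribution, so a shift of many genes spreads over the rest. Of 45281 probes, 34885 had 1 gene symbol, 18 several and 10378 none. A symbol was read from its probe of highest mean, and features had detection p under 0.05 on at least 6 of 24 arrays.

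The difference between sets carries no test. Slopes were fitted with lmFit and eBayes of limma over all features, two-sided, with Benjamini-Hochberg adjustment, and tested on simulated data. Members, lists and tests were chosen with earlier results of these data known. Named genes were the markers, the 12 greatest differences each way, up to 5 genes of each list and fibre type genes, and the 10 greatest slopes each way. Other genes named were chosen after their values were seen. Shared replicate numbers did not pair run and rest arrays (correlations of deviations in WT 0.705, 0.368 and -0.127). Between TG and WT at rest they were 0.347, 0.688 and 0.412, and after the run -0.596, 0.27 and 0.615. No source used here gives slide or scan date.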

Additional observations from a re-analysis of the deposited data

Results flagged for a closer look

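Of 220 groups of 5 or 6 arrays looked at, 11 had an array far from its nearest neighbour relative to the range of its set, by Dixon's criterion. Chance gives about 1 in 20 groups. In slow-poor arrays the lowest array was WT rest 11 for Myl3 (14.38) and Atp2a2 (12.82). TG rest 11 was the lowest slow-poor array for Bdh1 (7.14), Myom3 (10.11), Gsn (9.71) and Mss51 (8.75), and WT run 5 the lowest for Hoxd9 (8.18). Among slow-poor arrays, TG rest 8 was the highest for Ndufs4 (13.74) and WT run 5 the highest for Hspa1a (10.93), a heat shock gene. In slow-rich arrays WT rest 1 was the highest for Cox6a1 (11.64) and the lowest for Hoxd10 (8.79).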

How the results depend on the processing

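The run minus rest difference in slow marker mean was 0.12. With the replicate block it was reversed, at -0.22 (8 pairs, exact permutation p = 0.297). The TG minus WT difference with the replicate block was -0.23 (6 pairs, exact permutation p = 0.5). The block changed no call. Counts standing apart in the sets, 127 higher and 163 lower, were 21 and 53 with a common array median, 952 and 726 at a difference of at least 0.5, and 355 and 536 in exercised arrays only (2 against 2, chosen after seeing the data). With 4 arrays in each set 250 were lower. With 1 array left out they ranged between 114 and 187 higher and between 139 and 259 lower. Slope calls, 1383 positive and 1214 negative, were 2329 and 1894 with no covariate, and 2341 and 1875 with lymphocyte mean, run and genotype. Positive calls were 2174 with all 14 arrays outside the sets and 878 with array weights. Both were 0 in the 7 arrays, a fit chosen after seeing the data with fewer arrays. With 1 array left out they ranged between 33 and 1628 positive and between 53 and 1451 negative. The causes of the other shifts were not tested. Of the named genes' differences, 27 of 194 moved by over 1 SD with the common array median, 22 in exercised arrays only, 2 in unexercised arrays only and 1 with 6 arrays in each set. In 17 of the 194, with differences of at most 0.65 in size, the sign changed under at least 1 of these alternatives. Signals near the top of the scale limit differences of the most abundant fibre genes.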
